A study of Homo sapiens with 24 samples.

Results

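The genes described here encode the proteins of the mitochondrial ribosome (mitoribosome). They were taken as the protein-coding genes whose symbol starts with MRPL or MRPS followed by a number, without their pseudogenes and without MRPS18B. Of the 61860 Ensembl identifiers in each of the 4 count tables, 77 met this rule, 49 of them MRPL genes and 28 MRPS genes. The tables come from 4 RNA-seq experiments with OE33, a human esophageal adenocarcinoma cell line, with 3 treated and 3 control libraries in each experiment and no library shared between experiments. In the first, OE33 xenografts grew in male nude mice that were fed either a diet rich in fat (HFD) or normal chow (ND). These mice were 4 weeks old when bought, had 8 weeks of the diet before the cells were injected under the skin, and carried the tumors for 21 days. In the second, cultured OE33 cells received HA-TRIM15, a tagged form of the ubiquitin ligase TRIM15, or the empty vector (EV), for 48 h. In the other two, a short hairpin RNA against YY2 (shYY2) or against FOXRED1 (shFOXRED1) was compared after 72 h with a shControl of the same experiment. Nude mice lack T cells but keep other immune cells and their stroma. Which hairpin was sequenced in each knockdown is not given in the sources used here, and each group is 1 cell line. No label says whether libraries of a group came from separate animals or cultures, so p-values measure the spread between these libraries, which may be technical.

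Mitochondria keep a ribosome of their own, which is built from RNAs encoded by mitochondrial DNA and from proteins that are all encoded in the nucleus, made in the cytosol and imported. It translates the few proteins that mitochondrial DNA encodes, all of them parts of the respiratory chain and ATP synthase. Genes named MRPL belong to the large subunit, which forms peptide bonds and holds the exit tunnel, and most genes named MRPS belong to the small subunit, which reads the mRNA. The names are not exact: the proteins of MRPS30 and MRPS18A sit in the large subunit, and MRPS36 encodes a part of the 2-oxoglutarate dehydrogenase complex. YY2 is a zinc-finger transcription factor closely related to YY1, and FOXRED1 is an assembly factor of respiratory complex I.

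Levels are given in CPM, which are read counts scaled to the size of the library, here after TMM scaling, and a gene was called higher or lower when the edgeR quasi-likelihood test gave an adjusted p under 0.05 over all genes tested. The libraries held 14299807 to 45994561 counts, and the members took 0.204% to 0.340% of them. The targeted genes followed the labels. TRIM15 was listed at 5.41, 8.45 and 11.4 CPM with HA-TRIM15 and at 0 in the 3 EV libraries, YY2 fell with shYY2 (log2 fold change −1.82 ± 0.22, SE, adjusted p = 1.3e-06) and FOXRED1 fell with shFOXRED1 (−0.78 ± 0.11, adjusted p = 4.06e-05). TRIM15 was also higher in the HFD xenografts, at 0.614, 0.656 and 0.63 CPM against 0.0375, 0 and 0. FOXRED1 itself fell with HA-TRIM15 (−0.24 ± 0.05) and with shYY2 (−0.89 ± 0.06). All 8 epithelial markers were above 1 CPM in every group, while the endothelial and adipocyte markers and 5 of 7 leukocyte markers were under 1 CPM in every group; the fibroblast markers rested on COL1A1, since the other 6 were under 1 CPM in every group. All 37 genes of the mitochondrial genome were at 0 in all 24 libraries, so the RNAs that this ribosome translates could not be followed.

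MRPL53, a large-subunit protein, was listed at 0 in all 24 libraries, which allows up to 0.21 CPM (3 counts) in the shallowest of them. In the annotation 45.2% of its exon bases are shared with CCDC142 on the same strand. The other 76 members passed the filter on low counts in all 4 comparisons. Per kilobase of exon and averaged over the 4 control groups, the median level of all 77 members, MRPL53 at 0 included, was 11.8 CPM, against 122.1 for the 77 cytosolic ribosomal protein genes. MRPL15 (53.2 CPM per kilobase, 40.3 to 66.7 over the control groups), MRPL3 (50.3, 37.5 to 65.2) and MRPS34 (48.4, 38.9 to 53.1) were the highest, and their ranges overlap. MRPL38 (0.767), MRPL46 (0.649) and MRPS24 (0.376) were the lowest above 0. The exons of 41 members overlap those of another gene, most of all MRPL12, with 68.2% of its exon bases on the same strand, and 35 members have a pseudogene named after them. Reads of such pairs can be split or dropped by the counting, and the values of these genes are less certain for it.

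Promoter sequences are shown first because shYY2 depletes a factor that shares its recognition core with YY1. RefSeq promoters (GRCh38.p14, 250 bases before to 50 bases after the start) were available for 69 of the 77 members, with 85 start sites in all. The core AAGATGGC, on either strand, was present in 22 of these 85 promoters (25.9%), against 2.89% of all 35116 promoters in the same table. It was found in 20 members. In 15 of them it lay on the gene's own strand downstream of the start, with its first base between positions 7 and 36 of the transcript, an arrangement found in 17.6% of the members' promoters and 1.247% of all promoters. Windows of 30 bases round it are shown for the 4 of these genes whose RNA was lowered most by shYY2 and for 3 whose change did not pass the threshold, with the core in capitals.
MRPL20, chr1:1407260-1407289, minus strand: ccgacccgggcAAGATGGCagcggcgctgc
MRPL51, chr12:6493223-6493252, minus strand: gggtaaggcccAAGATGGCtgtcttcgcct
MRPL50, chr9:101398577-101398606, minus strand: ggatctcatcgAAGATGGCggcgcgatctg
MRPL42, chr12:93467511-93467540, plus strand: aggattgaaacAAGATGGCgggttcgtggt
MRPS18A, chr6:43687764-43687793, minus strand: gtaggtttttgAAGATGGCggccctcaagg
MRPS27, chr5:72320206-72320235, minus strand: tggtacgctccAAGATGGCtgcctccatag
MRPL38, chr17:75904860-75904889, minus strand: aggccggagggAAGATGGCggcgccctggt

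The ETS core CCGGAAG, bound by GABPA among others, was in 33 of the 85 promoters (38.8%), against 10.3% of all promoters. Both cores were present in 8 members, none with the 2 overlapping, and 27 of the 69 had neither. The NRF1 core GCGCATGCG was in 3 promoters (3.53% against 1.92%), the E-box CACGTG in 10 (11.8% against 7.26%) and the E2F cores TTTCCCGC and TTTGGCGC in 1 and 2 (1.18% against 1.63%, and 2.35% against 0.652%). The shares over all promoters include genes not tested here. Among genes tested in shYY2, NRF1 was in 3 members and not in 65, beside 457 and 10699 of all genes. For the E-box these counts were 10 and 58, beside 1393 and 9763. For ETS they were 29 and 39, beside 2380 and 8776, and for YY 20 and 48, beside 681 and 10475. The 250 bases before the start are shown for 3 members that fell with shYY2: MRPL3, which fell most and has only the ETS core, MRPL47, which has both, and MRPS12, which has the YY core far upstream and an ETS core that runs across the start and so ends outside the bases shown. Capitals mark YY and ETS cores on either strand.
MRPL3, chr3:131502972-131503221, minus strand: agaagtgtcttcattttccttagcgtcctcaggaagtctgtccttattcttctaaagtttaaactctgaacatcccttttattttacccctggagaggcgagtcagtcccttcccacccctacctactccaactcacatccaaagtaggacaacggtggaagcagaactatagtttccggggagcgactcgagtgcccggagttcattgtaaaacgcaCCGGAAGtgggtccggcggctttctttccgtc
MRPL47, chr3:179604639-179604888, minus strand: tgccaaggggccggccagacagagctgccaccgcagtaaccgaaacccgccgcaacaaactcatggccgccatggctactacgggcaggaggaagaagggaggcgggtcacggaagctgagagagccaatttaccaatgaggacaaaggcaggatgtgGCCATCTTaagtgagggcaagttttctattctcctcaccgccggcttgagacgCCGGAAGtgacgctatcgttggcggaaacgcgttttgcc
MRPS12, chr19:38930694-38930943, plus strand: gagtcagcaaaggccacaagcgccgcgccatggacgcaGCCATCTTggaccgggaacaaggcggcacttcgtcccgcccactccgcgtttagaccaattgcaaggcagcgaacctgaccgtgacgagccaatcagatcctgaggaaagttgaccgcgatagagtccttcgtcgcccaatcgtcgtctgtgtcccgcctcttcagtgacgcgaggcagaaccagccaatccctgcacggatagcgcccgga

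Knockdown of YY2 went with lower levels of most mitoribosomal protein genes. Of the 76 tested, 57 fell (75%), 5 rose and 14 did not pass the threshold, beside 38.1% of all 16006 genes tested called lower and 36.8% called higher. Their median log2 fold change was −0.52, which is a level 30.1% lower, against −0.01 over all genes tested. Both subunits moved: 37 of 48 MRPL genes fell (median −0.51) and 20 of 28 MRPS genes fell (median −0.53). In 59 of the 76 all shYY2 libraries lay below all shControl libraries, a pattern seen in 38.8% of all genes, and in 5 they lay above, as in 37.5% of all genes. A fall of at least 1.2-fold was found in 49 members and a rise of that size in 2, beside 32.2% and 31.1% of all genes.

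**Figure D1:**
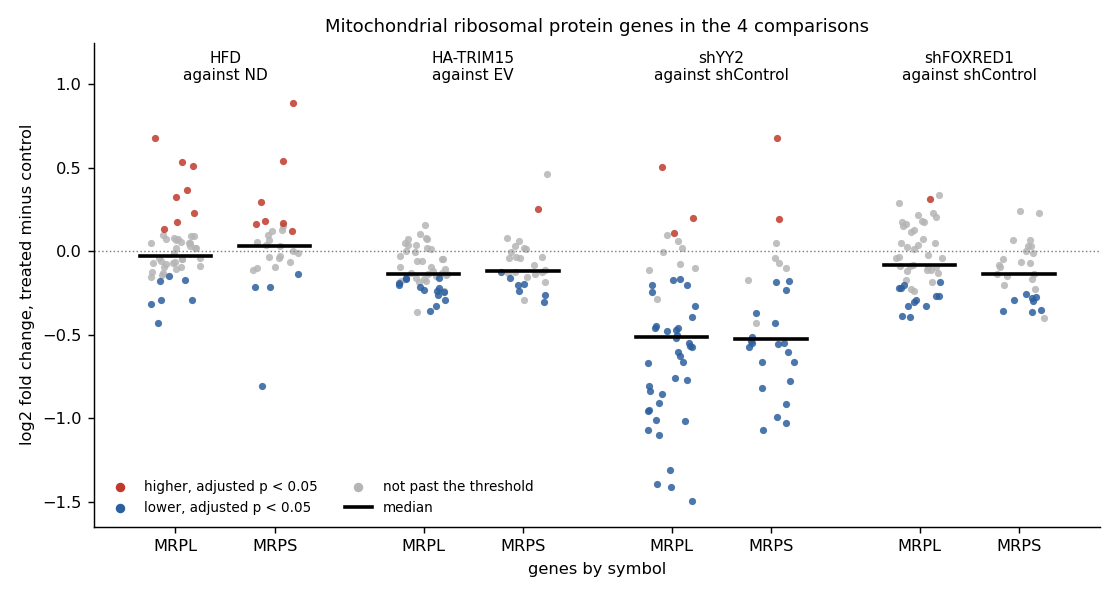
Log2 fold change (treated minus control, vertical axis) of the 76 tested members in the 4 comparisons, MRPL and MRPS genes apart; each point is a gene, coloured by its call, and the line is the median. The medians lie near 0 in HFD, slightly below 0 in HA-TRIM15 and shFOXRED1, and at −0.51 (MRPL) and −0.53 (MRPS) in shYY2.

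The largest fall was in MRPL3, a core protein of the large subunit near its catalytic centre. It measured 55.0, 59.3 and 58.8 CPM with shYY2 against 165.3, 162.1 and 159.9 with shControl (log2 fold change −1.49 ± 0.04, SE, adjusted p = 7.15e-15). The 2 groups are far apart, and no library of either lies near the other. MRPL12, the stalk protein that recruits translation factors, was at 4.57, 5.40 and 5.95 against 14.3, 15.3 and 12.9 CPM (−1.41 ± 0.11, adjusted p = 9.75e-09), and MRPL1, of the mobile L1 stalk, at 7.18, 6.54 and 7.52 against 18.6, 18.0 and 19.4 CPM (−1.40 ± 0.08, adjusted p = 4.19e-10). MRPL17, which lines the exit of the peptide tunnel, was at 24.2, 22.3 and 22.5 against 58.9, 53.0 and 58.6 CPM (−1.31 ± 0.06, adjusted p = 5.32e-12). The fall was 64.5% of the control level in MRPL3 and 59.6% in MRPL17.

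Among MRPS genes the largest falls were smaller. MRPS11, on the platform of the small subunit, was at 9.01, 8.94 and 8.82 CPM with shYY2 and at 19.3, 19.4 and 17.6 with shControl (−1.07 ± 0.08, adjusted p = 4.5e-09). MRPS23, a protein particular to mitochondria, was at 26.2, 24.3 and 26.8 against 51.6, 50.4 and 55.7 CPM (−1.03 ± 0.05, adjusted p = 7.93e-11), and MRPS16, which has a bacterial counterpart, at 59.0, 59.98 and 61.8 against 121.7, 114 and 123.3 CPM (−0.99 ± 0.04, adjusted p = 1.83e-12). In each of the 3 the groups do not overlap. MRPS12, a protein of the decoding centre, fell by 0.82 on the log2 scale (SE 0.07), and MRPL58, a peptidyl-tRNA hydrolase that became a ribosomal protein, by 0.96 (SE 0.08).

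**Figure D2:**
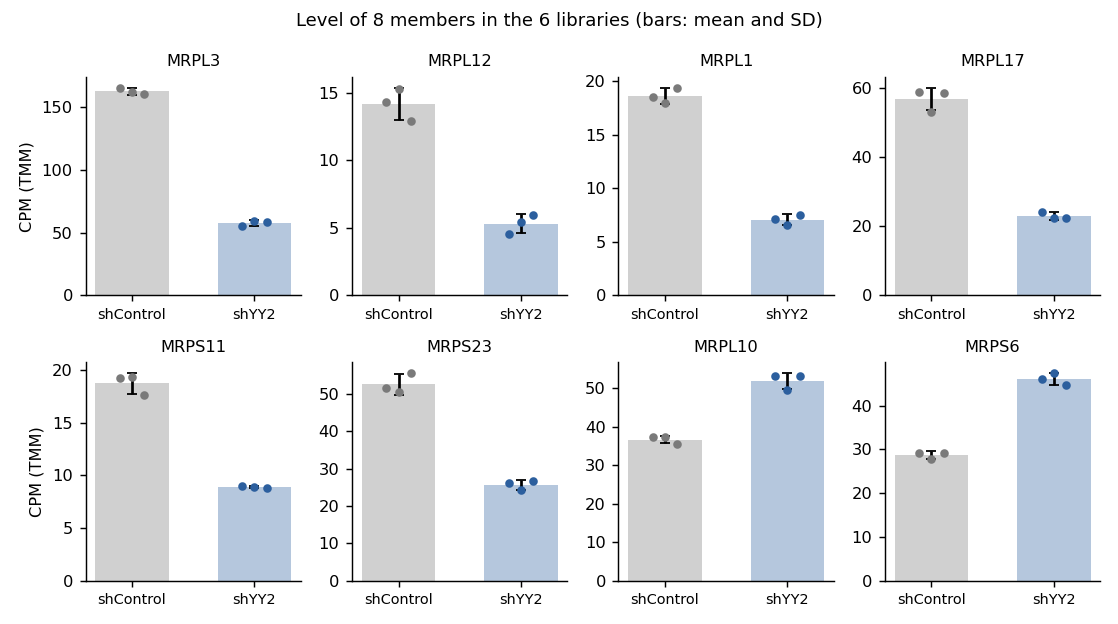
CPM (vertical axis, from 0) of 8 members in the 3 shControl and 3 shYY2 libraries; points are libraries, bars the mean with SD. In MRPL3, MRPL12, MRPL1, MRPL17, MRPS11 and MRPS23 every shYY2 library lies below every shControl library, and in MRPL10 and MRPS6 every shYY2 library lies above.

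A few members went the other way. MRPS6, a small-subunit protein, was at 46.0, 47.5 and 44.7 CPM with shYY2 and at 29.2, 27.8 and 29.3 with shControl (0.68 ± 0.05, adjusted p = 2.92e-09). MRPL10, which holds MRPL12 on the ribosome, was at 53.1, 49.6 and 53.1 against 37.2, 37.2 and 35.6 CPM (0.50 ± 0.05, adjusted p = 6.56e-08), while MRPL11, also at the base of the stalk, fell (−0.50 ± 0.05, chosen after its value was seen). MRPL43 (0.20 ± 0.05), MRPS5 (0.19 ± 0.07) and MRPL44 (0.11 ± 0.05) rose by less, and without shYY2 replicate 3, or replicate 1 or 2 of its shControl, 3 members rose. MRPL43 shares 36.9% of its exon bases with SEMA4G and TWNK on the other strand, and MRPS6 shares 9.61% with SLC5A3 and AP000317.2 on its own.

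The members named for the small subunit but found elsewhere did not all fall. MRPS30 fell (−0.37 ± 0.04, adjusted p = 2.78e-07), MRPS18A was at −0.07 ± 0.08 (adjusted p = 0.448) and MRPS36 at −0.17 ± 0.08 (adjusted p = 0.0757). With MRPS30 and MRPS18A counted in the large subunit and MRPS36 left out, 38 of 50 large-subunit genes and 19 of 25 small-subunit genes fell, 76% in both. All 5 mitoribosomal proteins without an MRP symbol fell too: GADD45GIP1 (−0.71 ± 0.05), AURKAIP1 (−0.62 ± 0.06), DAP3 (−0.53 ± 0.03), CHCHD1 (−0.33 ± 0.06) and PTCD3 (−0.20 ± 0.03). By place on the large subunit, 6 of 8 genes of the polypeptide exit region fell (median −0.86), as did 4 of 6 of the central protuberance (median −0.76) and 2 of 3 of the stalk and factor-binding region (MRPL11 and MRPL12, with MRPL10 higher). None of these shares exceeds the 76% of the large subunit, so they are no result about place. Of all genes tested 38.1% were called lower. Of proteins with a bacterial counterpart, 25 of 30 fell in the large and 11 of 16 in the small subunit, and of those particular to mitochondria 13 of 20 and 8 of 9.

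**Figure D3:**
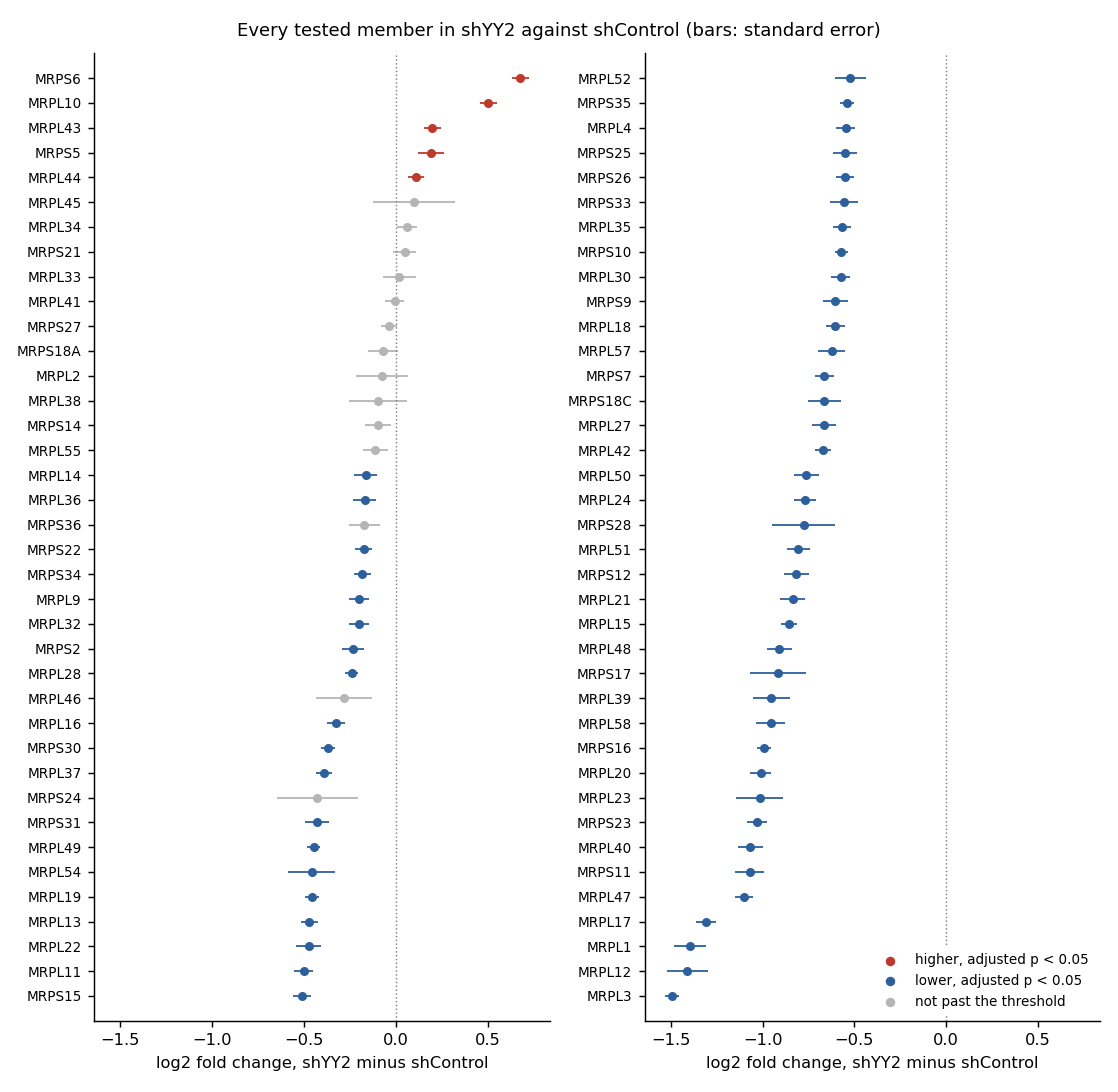
Log2 fold change (horizontal axis) with its standard error for each of the 76 tested members in shYY2 against shControl, in order of change from MRPS6 at the top left to MRPL3 at the bottom right. Colour gives the call: 5 genes rose, 57 fell and 14 did not pass the threshold.

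The members summed to 2129 to 2144 CPM in the shYY2 libraries and to 2961 to 3059 CPM with shControl. The MRPL sum went from 1924 ± 33 to 1324 ± 9 CPM and the MRPS sum from 1086 ± 17 to 815 ± 5 CPM (mean ± SD, n = 3), and the ratio of the 2 sums from 1.77 ± 0.01 to 1.63 ± 0.02. The groups do not overlap in either sum. Of the 77 cytosolic ribosomal protein genes, which build the ribosome outside mitochondria, 24 fell, 21 rose and the median was −0.02.

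**Figure D4:**
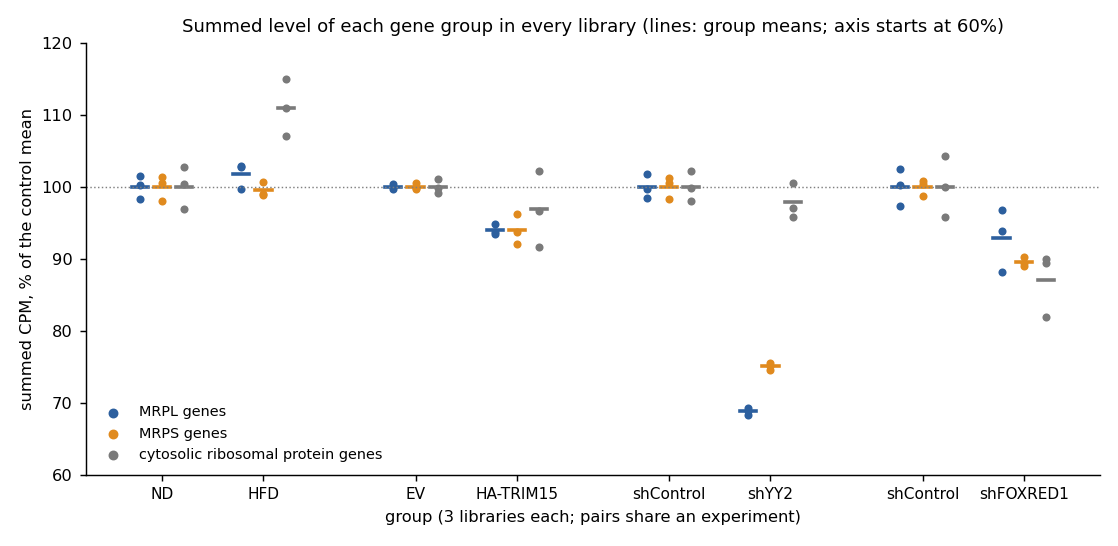
Summed CPM of the MRPL, MRPS and cytosolic ribosomal protein genes in each of the 24 libraries, in percent of the mean of the experiment's own control (vertical axis, from 60%); points are libraries and lines group means. Both mitoribosomal sums are lowest in shYY2, while the cytosolic sum lies above its control in HFD and below it in shFOXRED1.

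Most genes of the lists that serve the mitoribosome fell too, beside 38.1% of all genes tested called lower and 36.8% called higher. Of 26 assembly factors tested, 17 fell and 4 rose (median −0.50), among them MPV17L2 (−1.36 ± 0.12), the RNA helicase DDX28 (−1.35 ± 0.12) and FASTKD2 (−1.08 ± 0.04), while the GTPase NOA1, chosen after its value was seen, rose (1.05 ± 0.04). Of 17 translation factors and their partners, 13 fell and 3 rose (median −0.38), with C1QBP (−1.37 ± 0.04), the elongation factor GFM1 (−1.30 ± 0.04) and GUF1 (−1.15 ± 0.04) lowered most. Of 23 genes for keeping mitochondrial DNA and RNA, 21 fell and 1 rose (median −0.79), including the RNA nuclease PNPT1 (−1.33 ± 0.05), HSD17B10 (−1.27 ± 0.07), a part of mitochondrial RNase P, and the DNA helicase TWNK (−1.22 ± 0.07). Of 15 regulators of nuclear genes for mitochondria, 9 fell and 4 rose, with the coactivator PPRC1 (−1.48 ± 0.04), ATF5 (−1.2 ± 0.13) and GABPB1 (−1.05 ± 0.06), a partner of GABPA, lowered most.

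Members with and without the YY core fell. Of the 20 tested members with it, 14 fell (median −0.46), and of the 48 others with a promoter, 37 fell (median −0.53). Of the 29 with the ETS core, 24 fell (median −0.57), and of the 39 others, 27 fell (median −0.45). Among all genes with a promoter in the table, 50.5% of the 681 with the YY core fell, against 41.3% of the 10475 without it. A higher share with the core was not particular to YY. It was 50.7% against 39.5% for the ETS core, 52.7% against 41.4% for NRF1 and 45.1% against 41.4% for the E-box. For the E2F cores it was 54.8% against 41.5% (TTTCCCGC) and 61.5% against 41.6% (TTTGGCGC). MRPL20 (−1.01 ± 0.06) and MRPS18A (−0.07 ± 0.08) show the spread, with cores on the same strand that begin at bases 16 and 10 of the transcript.

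Division markers moved in the same libraries. They summed to 1588 to 1612 CPM with shYY2 and to 2454 to 2526 CPM with shControl, and 7 of 8 fell, PCNA (−2.20 ± 0.04) and MCM2 (−1.89 ± 0.04) most. COL1A1, the only fibroblast marker above 1 CPM, rose from 10.6 ± 0.4 to 42.7 ± 1.0 CPM, while the other markers of that list were under 1 CPM in both groups. The part of either in the result was not tested. Changes also differed with GC content, whose part in the result was not tested: among protein-coding genes split into 4 equal bins by the GC content of their transcripts, the median of all genes ran from −0.16 in the bin lowest in GC to 0.16 in the highest, while that of the members was −0.47, −0.61, −0.45 and −0.24 in the same order.

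Knockdown of FOXRED1 went with smaller changes. Of the 76 members 20 fell (26.3%) and 1 rose, beside 19.7% of all 15730 genes tested called lower and 16.8% called higher, and the median was −0.09 against 0.01 over all genes. By subunit, 12 of 48 MRPL genes (median −0.08) and 8 of 28 MRPS genes (median −0.13) fell. The share of falling members stands near the background, so that share is no result about these genes in particular. The share that rose, 1.32%, lies below the background, but the count of rises was 12 without shFOXRED1 replicate 3. In 26 members all shFOXRED1 libraries lay below all shControl libraries and in 1 they lay above, beside 24.4% and 22.3% of all genes. Among 75 cytosolic ribosomal protein genes 38 fell and 0 rose, with a median of −0.17.

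MRPL30, a large-subunit protein with a bacterial counterpart, was at 29.4, 27.0 and 31.3 CPM with shFOXRED1 and at 39.2, 36.2 and 39.4 in its shControl (−0.39 ± 0.08, adjusted p = 0.00106). MRPL3 was at 78.7, 78.6 and 83.6 against 100.4, 108.4 and 106.8 CPM (−0.39 ± 0.06, adjusted p = 7.66e-05). The groups do not overlap in either gene, and the next largest falls in the large subunit, in MRPL19 and MRPL37, were −0.33 each. MRPS35 was at 58.1, 60.4 and 60.9 against 74.0, 79.3 and 77.2 CPM (−0.36 ± 0.06, adjusted p = 0.000229), and MRPS23 (−0.36 ± 0.08) and MRPS5 (−0.35 ± 0.11) fell by as much.

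MRPL12 spread widely with shFOXRED1, at 10.4, 8.06 and 5.54 CPM against 6.22, 7.17 and 5.71, and did not pass the threshold (0.34 ± 0.19, adjusted p = 0.177). MRPS36 was at 5.93, 6.22 and 9.03 against 10.5, 8.23 and 8.97 CPM (−0.40 ± 0.17, adjusted p = 0.068), and MRPL58, MRPS12, MRPS30 and MRPS18A were between −0.04 and 0.24. Of the proteins without an MRP symbol, DAP3 (−0.32 ± 0.06) and PTCD3 (−0.28 ± 0.07) fell, and CHCHD1, GADD45GIP1 and AURKAIP1 did not pass. The gene that rose was MRPL28 (0.31 ± 0.09), whose groups overlap. With the replicate number as a block, 3 members rose and 24 fell.

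In the neighbouring lists 4 of 27 assembly factors, 5 of 17 translation factors and 5 of 23 genes for mitochondrial DNA and RNA fell, and 2, 1 and 0 rose, beside the 19.7% of all genes called lower and 16.8% called higher. Of 16 regulators 5 rose and 2 fell. TFB1M (−0.58 ± 0.12) and ERAL1 (−0.54 ± 0.07), both needed for the small-subunit RNA, and LRPPRC (−0.41 ± 0.07) were among the list genes that fell. ATF5, a regulator of the mitochondrial stress response, measured 24.0, 25.4 and 21.9 against 11.5, 10.0 and 9.45 CPM and rose here (1.199 ± 0.11), whereas it fell with shYY2. All 8 division markers fell, from a sum of 996 to 1045 CPM to 588 to 631 CPM, and COL1A1 rose from 24.6 to 40.3 CPM (0.71 ± 0.08). The members' median was −0.17, −0.10, −0.13 and 0.16 in the 4 bins of GC content from low to high, beside −0.12, −0.08, 0.02 and 0.15 for all genes. The part of division, COL1A1 and GC content in these counts was not tested. Without shFOXRED1 replicate 3 the count of rising members was 12, without shFOXRED1 replicate 2 or replicate 3 of its shControl it was 0, and without replicate 2 of its shControl the count of falling members was 12.

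The difference between the knockdowns was tested directly, as the shYY2 effect minus the shFOXRED1 effect over their 12 libraries. Of the 76 members 47 were lower in shYY2 than in shFOXRED1 (61.8%) and 4 were higher, beside 28% and 26.4% of all 17146 genes tested, and the median difference was −0.38. The differences with the largest size were in MRPL12 (−1.76 ± 0.24, adjusted p = 1.57e-06), MRPL1 (−1.30 ± 0.14, adjusted p = 6.47e-08), MRPL17 (−1.20 ± 0.11, adjusted p = 1.09e-08) and MRPL3 (−1.10 ± 0.07, adjusted p = 1.07e-11). The 4 genes that were higher in shYY2 were MRPS6 (0.75 ± 0.10), MRPL10 (0.63 ± 0.08), MRPS5 (0.54 ± 0.13) and MRPS27 (0.24 ± 0.08). Of the 77 cytosolic ribosomal protein genes 39 were higher in shYY2 than in shFOXRED1 and 6 lower. The 2 experiments have different controls and levels: the members summed to 2961 to 3059 CPM in the shControl of the YY2 experiment and to 2211 to 2300 CPM in that of the FOXRED1 experiment.

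**Figure D5:**
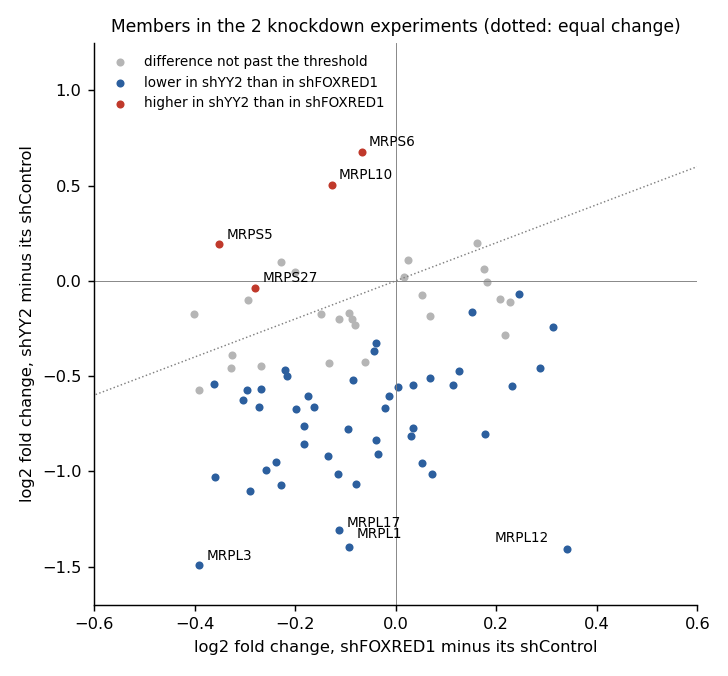
Log2 fold change of each member with shYY2 (vertical axis) against that with shFOXRED1 (horizontal axis), each against its own shControl; colour gives the test of the difference, and the dotted line marks equal change. The 47 genes lower in shYY2 lie below the line, MRPL12 farthest from it, and the 4 genes above it with a called difference are named.

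With HA-TRIM15 the mitoribosomal protein genes were slightly lower. Of the 76 members 21 fell (27.6%) and 1 rose, beside 9.53% of all 15745 genes tested called lower and 12.5% called higher, and their median was −0.13 against −0.01 over all genes. In 36 members all HA-TRIM15 libraries lay below all EV libraries, a pattern found in 17.6% of all genes, and in 4 they lay above, beside 20.1%. Among MRPL genes 14 of 48 fell (median −0.14) and among MRPS genes 7 of 28 (median −0.12), and the members summed to 3126 to 3206 CPM against 3352 to 3371 CPM with EV.

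The falls were small for each gene. MRPL54 was at 12.3, 9.49 and 10.4 CPM with HA-TRIM15 and at 13.6, 13.1 and 14.9 with EV (−0.36 ± 0.10, adjusted p = 0.0163). MRPL27, near the catalytic centre, was at 27.4, 27.3 and 24.97 against 32.6, 33.4 and 34.2 CPM (−0.33 ± 0.06, adjusted p = 0.000728), and MRPL18, of the central protuberance, at 60.9, 63.2 and 60.7 against 74.1, 77.0 and 74.9 CPM (−0.29 ± 0.04, adjusted p = 0.000125). In all 3 the groups do not overlap. MRPL55 (−0.26 ± 0.07), MRPS12 (−0.30 ± 0.08), MRPS26 (−0.26 ± 0.06), MRPS21 (−0.24 ± 0.05) and MRPL58 (−0.23 ± 0.07) fell too. MRPS18C rose, at 13.8, 15.5 and 14.5 against 12.0, 11.9 and 12.6 CPM (0.26 ± 0.08, adjusted p = 0.028), and 40.2% of its exon bases are shared with ABRAXAS1 on the other strand. This call was lost with DESeq2 (adjusted p = 0.0812), without the filter on low counts (adjusted p = 0.059) and without any one library other than HA-TRIM15 replicate 1 (adjusted p = 0.0581 to 0.114).

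MRPL12 was at −0.18 ± 0.08 (adjusted p = 0.115), and MRPS30, MRPS18A and MRPS36 were between −0.03 and 0.02. Of the proteins without an MRP symbol AURKAIP1 fell (−0.20 ± 0.06) and the other 4 did not pass. The counts of the neighbouring lists stand beside 9.53% of all genes called lower and 12.5% called higher. Of 27 assembly factors 5 fell and 1 rose, with MTG1 (−0.38 ± 0.12) and METTL17 (−0.30 ± 0.06) first among the falls. Of 17 translation factors 3 fell and 1 rose. OXA1L (−0.19 ± 0.04), which inserts the new proteins into the inner membrane, and TUFM (−0.15 ± 0.04) were among those that fell. Of the 23 genes for mitochondrial DNA and RNA 5 fell and 2 rose, and of the 15 regulators 2 fell and 2 rose. The median of the cytosolic ribosomal protein genes was −0.06, and of these 77 genes 8 fell and 2 rose.

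The HA-TRIM15 counts rest on small changes: only 4 of the 21 falling members fell by at least 1.2-fold and 0 rose by as much, beside 2.99% and 4.64% of all genes, and the count of falling members was 10 without HA-TRIM15 replicate 2 or EV replicate 1 and 13 without EV replicate 2 or 3. Changes also differed with GC content: the median of all genes ran from 0.09 in the bin lowest in GC to −0.11 in the highest and that of the members was −0.05, −0.04, −0.12 and −0.19 in the same order. Division markers, 7 of 8 of which fell (PCNA −0.26 ± 0.03), summed to 2379 to 2456 CPM against 2604 to 2637 CPM. The part of GC content and of division in the result was not tested.

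In the xenografts the diet left the members' median at 0.01. Of the 76 members 15 were higher in HFD (19.7%) and 11 lower (14.5%), beside 25.6% and 23.9% of all 17012 genes tested. Of the MRPL genes 8 rose and 7 fell, and of the MRPS genes 7 rose and 4 fell. After TMM scaling the members summed to 2734 to 2807 CPM in HFD and to 2704 to 2792 CPM in ND, and the ranges overlap. Before this scaling the ranges did not overlap. The members took 0.2633% to 0.2697% of the counts in HFD libraries and 0.2809% to 0.2897% in ND libraries. The level with diet therefore depends on the scaling, whose part was not tested. In bulk tissue fewer cancer cells and less RNA per cell cannot be told apart, the human epithelial markers summed to 13510 to 13700 CPM in HFD and to 12420 to 12620 CPM in ND (5 of 8 higher, 1 lower), and how mouse reads were handled is not given in the sources used here. Of the 77 cytosolic ribosomal protein genes 44 were higher in HFD and 0 lower (median 0.17).

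Single members changed by more than the median. MRPS6 was at 36.7, 37.7 and 35.6 CPM in HFD and at 64.1, 62.5 and 65.3 in ND (−0.80 ± 0.04, adjusted p = 2.76e-10), the opposite direction to its change with shYY2. MRPL57 was at 17.5, 19.2 and 18.1 against 24.7, 23.8 and 25.3 CPM (−0.43 ± 0.06, adjusted p = 1.57e-05), and MRPL34 (−0.31 ± 0.04), MRPL49 (−0.29 ± 0.04), MRPL27 (−0.29 ± 0.07), MRPS7 (−0.21 ± 0.04) and MRPS18A (−0.21 ± 0.07) fell by less. Upward, MRPL39 was at 13.5, 14.1 and 12.8 against 8.81, 7.91 and 8.47 CPM (0.68 ± 0.08, adjusted p = 2.69e-06). The groups do not overlap in these genes.

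MRPL19 rose from 48.8 ± 1.3 to 70.9 ± 1.9 CPM (mean ± SD, n = 3, 0.54 ± 0.04), MRPL18 was at 59.6, 62.4 and 58.0 against 42.8, 41.1 and 42.2 CPM (0.51 ± 0.04), and MRPL35 rose by less (0.37 ± 0.05). The largest fold, in MRPS24 (0.89 ± 0.26), rests on 1.01, 1.69 and 1.02 against 0.712, 0.691 and 0.465 CPM, and the exons of this gene overlap those of the read-through gene URGCP-MRPS24. In the small subunit MRPS28 (0.54 ± 0.15), MRPS5 (0.30 ± 0.06) and MRPS23 (0.18 ± 0.06) rose. MRPS12 (0.17 ± 0.05) and MRPS30 (0.16 ± 0.05) were also higher, and MRPL12, MRPL58, MRPS36 and the 5 proteins without an MRP symbol did not pass the threshold. Of 27 assembly factors 8 fell (29.6%) and 4 rose (14.8%), beside 23.9% and 25.6% of all genes. Of 17 translation factors 5 rose (29.4%) and 1 fell (5.88%). The elongation factor TUFM (0.36 ± 0.04), GUF1 (0.42 ± 0.05) and LRPPRC (0.30 ± 0.04) were among those that rose. Of 23 genes for mitochondrial DNA and RNA 7 rose (30.4%), GRSF1 (0.44 ± 0.04) among them, and 1 fell (4.35%). Of 15 regulators 4 rose and 3 fell. The coactivator PPARGC1A, at 9.43, 7.54 and 10.4 CPM in HFD and at 16.9, 15.1 and 18.5 in ND, fell (−0.84 ± 0.10, adjusted p = 3.74e-06). Of the 8 division markers 6 were higher in HFD and 1 was lower, and they summed to 1785 to 1828 CPM against 1542 to 1597 CPM. COL1A1 was lower (−0.33 ± 0.06).

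Across the 4 comparisons no member fell in all and 6 fell in 3, MRPL27, MRPL35, MRPL49, MRPL57, MRPS7 and MRPS16, beside 4.38% of all genes tested in the 4 (0.262% for all 4). Of the 21 members that fell with HA-TRIM15, 17 also fell with shYY2 (81.0% of the first and 29.8% of the second list), among them MRPL18, MRPL27, MRPL54, MRPL58, MRPS12 and MRPS26. Over all genes tested in both, 48.9% of those lower with HA-TRIM15 were lower with shYY2, and 4.79% of all genes were lower in both. Of the 20 that fell with shFOXRED1, 17 also fell with shYY2 (85% and 29.8%), beside 61.4% over all genes, and 12.7% of all genes were lower in both. Of all 76 tested members, 57 (75%) fell with shYY2. The shares of 81.0% and 85% stand near that value, so they are no result about a link between the experiments. The other pairs shared fewer: HFD and shYY2 7 (8.51% of all genes), HFD and HA-TRIM15 2 (3.17%), HFD and shFOXRED1 3 (2.75%), and HA-TRIM15 and shFOXRED1 3 (2.42%). MRPS5 rose with HFD and shYY2 and fell with shFOXRED1, and MRPL35 rose with HFD and fell in the other 3.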

How the data were processed

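RNA of 24 OE33 libraries (8 groups of 3) was sequenced, by the paper's account after poly-T selection, paired-end with a NEBNext Ultra kit. The sample labels name a directional kit, so whether the libraries kept strand is not settled. The deposited values are raw read counts per Ensembl gene, which the authors left unnormalized. The submitters' processing notes name hg38 and mm10 without their role, the aligner, counter and annotation are not given in the sources used here, and whether counting used strand is not settled. Symbols were matched for 99.8% of the identifiers, and exon overlaps and lengths come from GENCODE 29. Totals ran from 14299807 to 45994561 counts.

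Each treated group was compared with the control of its own experiment by edgeR's quasi-likelihood test (edgeR 4.0.16, R 4.3.3), after filterByExpr (min.count 10, min.total.count 15) and TMM scaling, at a threshold of 0.05 on p-values adjusted by Benjamini and Hochberg's method across every gene that was tested. Errors after ± are standard errors of log2 fold changes unless SD is named. The difference between knockdowns was an interaction term over 12 libraries. The test was tried on simulated counts with 200 changed genes. In the shYY2 comparison (15696 genes) it recovered 62.7% of 1.2-fold and 93.9% of 2-fold changes, and in shFOXRED1 (15494 genes) 22.4% and 86.4%. Of the simulated calls 4.91% and 10% were false, and in HFD (16741 genes) 12.8%. For the difference between knockdowns (16621 genes) it recovered 17.9% of 1.2-fold and 78.8% of 2-fold differences, and 8.26% of calls were false. In the simulation the false shares in shFOXRED1, HFD and the difference between knockdowns lie above the nominal 0.05. They depend on how many genes change, and far more than 200 genes were called in each of these comparisons. The simulated shares therefore do not carry over, and how many of the single calls are false was not measured.

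The members and gene lists were chosen with earlier results of these data known. Named in each comparison were called members of at least 1 CPM whose groups did not overlap (the 4 largest MRPL and 3 largest MRPS changes per direction), 11 members and relatives of special role, the 4 largest differences per direction between the knockdowns, the 3 highest and 3 lowest levels, up to 3 genes per list, and TRIM15, YY2 and FOXRED1. Alternatives were DESeq2 1.42.0 (size factors and Wald test), no filter, at least 10 counts in every library, a fold of at least 1.2, a replicate block, and leaving out each library. The main test held no replicate term in any comparison, shFOXRED1 included, and the replicate block was an alternative only. Libraries of the same number were thought to be paired only in the FOXRED1 experiment, where their deviations correlated at 0.159, 0.116 and 0.319 over genes of at least 5 CPM. Over all genes tested these were 0.0289, 0.00987 and 0.0688, so the pairing rests on that choice of genes.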

Additional observations from a re-analysis of the deposited data

Results flagged for a closer look

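Differences between the 2 knockdowns, each taken against its own shControl, passed the interaction test in edgeR for 51 members. The log2 fold change was lower in shYY2 than in shFOXRED1 in 47 and higher in 4, beside 28% and 26.4% of all 17146 genes tested. The difference was −1.756 in MRPL12, −1.303 in MRPL1, −1.196 in MRPL17 and −1.104 in MRPL3. Upward it was 0.7464 in MRPS6, 0.6293 in MRPL10, 0.542 in MRPS5 and 0.2425 in MRPS27. MRPL12 shares 68.2% of its exon bases with AC139530.2 on the same strand, and the part of this overlap in the difference was not tested. Experiment and hairpin target cannot be told apart here, since each knockdown has its own control libraries.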

How the results depend on the processing

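With shYY2 the count of falling members ran from 55 to 58 when single libraries were left out. The other counts were less stable. Asking for a fold of at least 1.2 left 8 higher and 5 lower in HFD, 0 and 4 in HA-TRIM15, and 2 higher in shYY2. The DESeq2 Wald test gave 0 higher in HA-TRIM15 and 3 in shYY2, and no filter gave 0 in HA-TRIM15, 2 in shFOXRED1 and an MRPL median of −0.00703 in HFD. With the replicate block 3 rose in shFOXRED1, and the block moved no other count by over 1.5 times. Without single libraries the MRPL median ran from −0.03411 to 0.02671 in HFD and from −0.5489 to −0.4832 in shYY2. The counts ran from 0 to 2 higher and 10 to 29 lower in HA-TRIM15 (10 without HA-TRIM15 replicate 2 or EV replicate 1, 13 without EV replicate 2 or 3), from 3 to 5 higher in shYY2 (3 without shYY2 replicate 3 or replicate 1 or 2 of its shControl), and from 0 to 12 higher and 12 to 22 lower in shFOXRED1 (12 higher without shFOXRED1 replicate 3, 0 without shFOXRED1 replicate 2 or replicate 3 of its shControl, 12 lower without replicate 2 of its shControl). The causes were not tested. Signs turned only in named genes that had not passed the threshold. In HFD the leave-one-out range was −0.0212 to 0.1306 for MRPL58, −0.03976 to 0.2492 for MRPS36, −0.01375 to 0.05605 for DAP3, −0.04585 to 0.04764 for PTCD3 (−0.002932 with at least 10 counts in every library) and −0.08911 to 0.01103 for FOXRED1. In HA-TRIM15 it was −0.00156 to 0.03048 for MRPS30, −0.07243 to 0.06784 for MRPS18A, −0.1618 to 0.1454 for MRPS36 and −0.1075 to 0.06393 for CHCHD1. In shFOXRED1 it was −0.0075 to 0.09134 for MRPL58, −0.01735 to 0.08613 for MRPS12, −0.109 to 0.008921 for MRPS30 and −0.1953 to 0.004688 for GADD45GIP1. Of 2006 values of single genes under alternatives, 1885 kept direction and call, 91 lost their call (10 of them under the DESeq2 Wald test), 11 gained one and 19 changed sign, and 133 of 179 genes by comparison were the same under every alternative.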
